A study of Mus musculus with 48 samples.

Results

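Loss of a single Msh3 allele was examined in the striatum of Q140 mice by comparing the 8 libraries labelled Q140 x Msh3+/- with the 8 labelled Q140. These 16 of the 48 RNA-seq libraries in the series were chosen by the genotype in their labels, and each group held 4 female and 4 male mice. Q140 is a knock-in mouse with a lengthened CAG repeat in its own Htt, used to model Huntington's disease. All 16 mice were heterozygous for it by label, and their genotype labels differed only in Msh3, with both alleles intact in Q140 and 1 in Q140 x Msh3+/-. The names of 2 Q140 libraries, replicates F4 (female) and M4 (male), begin with Msh3Q. Those of the other libraries compared begin with Mh3Q. The other 32 libraries, 8 each of Q140 x Msh3-/-, Msh3-/-, Msh3+/- and WT, entered the same model and are used here for reference levels. Among these, the names of WT replicates F3 and F4 begin with MQC and PQ, and the rest with Mh3Q. Mice were on a C57BL/6 background, and their age is given as 12 months in the sample labels and as 6 months in the extraction text, so it is uncertain. How the Msh3 alleles were made is not given in the sources used here, and the CAG repeat itself is not analysed here.

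Msh3 is a mismatch repair protein that, as part of the MutSβ complex, binds small loops in DNA. In Huntington's disease this pathway lengthens the inherited CAG repeat in somatic cells during life, and striatal neurons are among the cells in which the repeat grows most. Most affected are the spiny projection neurons, which are GABAergic and form the output of the striatum, and they fall into a direct pathway type marked by the dopamine receptor Drd1 and an indirect pathway type marked by Drd2 and Penk. RNA was taken from whole striatum, so fewer cells of a type and less RNA per cell cannot be told apart in any result below.

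Total counts, in units of 1e6, ranged from 45.67 to 53.89 in the Q140 libraries and from 38.92 to 56.89 in the Q140 x Msh3+/- libraries. The striatal label held in the counts: Ppp1r1b, a defining spiny projection neuron gene, was at 1212 CPM or more in all 16 libraries (CPM, counts in every 1e6 after TMM scaling). On the first principal component of the residuals, which held 15.5% of the residual variance, 4 of the 48 libraries lay apart from the rest, and only 1 of them, Q140 x Msh3+/- F1 (F for female, M for male, with the label's replicate number), belongs to the groups compared. The total and the list counts that change without those 4 libraries are given below. No gene of the 10 marker lists for other cell types passed the test, but the summed level of the 12 cortical excitatory neuron markers was 831 to 1024 CPM (median 924) in Q140 and 937 to 1073 CPM (median 1007) in Q140 x Msh3+/-, with 10 of the 12 above 0 in log2 difference and none at 0 CPM in all 16 libraries. The ranges of that sum overlapped, with the higher median in Q140 x Msh3+/-, and its part in the gene groups described here was not tested.

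The targeted gene was examined first. Msh3 (ENSMUSG00000014850; GRCm38 chromosome 13, 92211872 to 92355003, minus strand) had a lowest, median and highest level of 28.5, 30.3 and 32.5 CPM in Q140 and of 68.4, 75.4 and 81.5 CPM in Q140 x Msh3+/-. The libraries labelled with a lost allele thus held more Msh3 RNA, not less, and the groups did not overlap. The log2 difference was 1.30 (SE 0.035, adjusted p = 5.7e-35). Without Q140 the same label went with the same direction, from 29.0 ± 1.61 CPM in WT to 73.9 ± 1.56 CPM in Msh3+/- (SD, n = 8). Gene-level counts tell nothing of the exons read or of whether the product works. The genotypes are therefore named as labelled, and all directions depend on those labels. For comparison, Htt (ENSMUSG00000029104; chromosome 5, 34761740 to 34912534, plus strand) was at 200 to 229 CPM in Q140 and 207 to 238 CPM in Q140 x Msh3+/-, which overlapped (log2 difference 0.06, SE 0.034, adjusted p = 0.416).

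**Figure D1:**
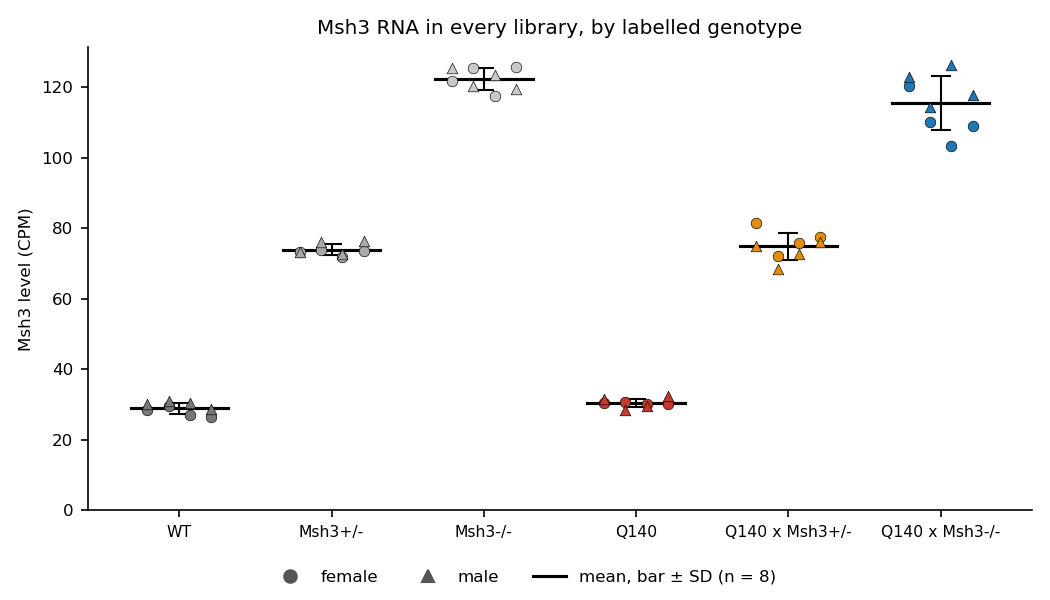
Msh3 level in CPM (y axis) in each of the 48 libraries by labelled genotype (x axis); circles are females, triangles are males, lines are means and bars ± SD over 8 libraries. The 8 Q140 x Msh3+/- libraries sit between 68.4 and 81.5 CPM, above all Q140 libraries, which reach 32.5 CPM.

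With 1 Msh3 allele lost, the Q140 striatum had higher RNA of genes that define spiny projection neurons and of single genes such as Fst, Nptx1 and Gpx6, and lower RNA of the homeobox genes Shox2, Onecut1 and Emx2 and of the NF-Y subunits Nfya and Nfyc. In all, 260 of 19714 genes tested (1.32%) passed an adjusted p of 0.05, 166 higher (0.842%) and 94 lower (0.477%). At an unadjusted p under 0.05 there were 2757 (14.0%). The changes were small: the median size was 0.30 log2 units among the higher and 0.16 among the lower genes, and 44 of the 260 differed at least 1.5-fold. The groups of 8 did not overlap for 26 of all genes tested in the higher direction (0.132%) and for 17 in the lower direction (0.0862%). The count was 181 when only the 16 libraries of the comparison were fitted. Named calls lost in that fit are listed under the dependence on processing. Without the 4 libraries that lay apart the count was 154. Without the 2 Msh3Q libraries it was 173, with 135 higher and 38 lower. It also moved by more than 1.5 times without any of 6 libraries: it was 136 without Q140 x Msh3+/- F1, 124 without Q140 x Msh3+/- F4, 153 without Q140 F2, 122 without Q140 F3, 172 without Q140 M3 and 481 without Q140 M2. None of the 260 genes turned its direction in any of these fits.

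Spiny projection neuron identity genes were higher with 1 allele lost. Of the 36 on the list, all tested, 11 rose and 0 fell, beside 0.842% and 0.477% of all genes tested. The median log2 difference of the list was 0.13 and that of all genes 0.01, and all 36 values were above 0. The list was chosen with earlier results of these data known, so these counts describe it and are no test. Adcy5, the main striatal adenylyl cyclase (chromosome 16, 35154877 to 35305738, plus strand), had a lowest, median and highest level of 1057, 1091 and 1173 CPM in Q140 and of 1163, 1302 and 1473 CPM in Q140 x Msh3+/-. In 7 of 8 Q140 x Msh3+/- libraries Adcy5 was above every Q140 library (log2 difference 0.24, SE 0.039, adjusted p = 0.000224). Rgs9, which shortens G protein signals downstream of dopamine receptors, was at 458 to 577 CPM (median 498) in Q140 and 536 to 705 CPM (median 610) in Q140 x Msh3+/-. Its ranges overlapped, with 5 of 8 libraries above the highest Q140 library, and the log2 difference was 0.27 (SE 0.049, adjusted p = 0.00139). Ryr1, a channel that releases calcium from internal stores, had the greatest rise on the list, from 24.6 to 49.4 CPM (median 33.9) to 42.5 to 74.4 CPM (median 52.0). Its log2 difference of 0.70 (SE 0.127, adjusted p = 0.00156) missed the threshold when only the 16 libraries of the comparison were fitted (adjusted p = 0.0713).

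The other identity genes that rose were Scn4b and Kcnip2, subunits of sodium and potassium channels, Rasgrp2, an activator of Rap1, the cyclic nucleotide phosphodiesterases Pde10a and Pde2a, the phosphatase regulator Ppp1r1b, the scaffold Strn and the actin crosslinker Actn2. Scn4b rose by 0.36 (SE 0.074, adjusted p = 0.00553) and Kcnip2 by 0.28 (SE 0.051, adjusted p = 0.000897) on the log2 scale. Kcnip2 had no overlap, at 250 to 288 CPM in Q140 and 291 to 390 CPM in Q140 x Msh3+/-. Ppp1r1b also had none, at 1212 to 1439 CPM against 1441 to 1668 CPM, although its log2 difference was only 0.17 (SE 0.040, adjusted p = 0.0149). For both genes the separation was narrow. Some calls rest on single libraries. Over the alternatives that kept both sexes, to which all such maxima below refer, the adjusted p reached 0.0673 for Ppp1r1b, which missed the threshold without Q140 x Msh3+/- F4. It reached 0.0659 for Strn, lost without Q140 F3 or Q140 x Msh3+/- F1 or F4, and 0.0816 for Pde2a, lost without Q140 M3 or Q140 x Msh3+/- F1. Actn2, where it reached 0.0807, was lost without Q140 F2, F3, F4 or M3 or Q140 x Msh3+/- F1, F3 or F4. The Ppp1r1b and Pde2a calls were also lost without the 2 Msh3Q libraries, and with the name prefix as a term in the fit. The transcription factors Foxp1 and Meis2, which also mark these cells, had log2 differences of 0.04 and 0.01 and did not pass; they were chosen after their values were seen. Without the 4 libraries that lay apart, 8 of the 36 rose.

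Indirect pathway genes included Adora2a, Penk and Gpr6 among those that rose, 3 of the 7 tested of 8 listed (42.9%, beside 0.842% of all genes tested). The list median was 0.15, and all 7 values were above 0. Without the 4 libraries that lay apart 4 rose. Adora2a, the adenosine receptor of these cells (chromosome 10, 75316877 to 75334784, plus strand), was at 164, 208 and 224 CPM (lowest, median and highest) in Q140 and at 229, 261 and 292 CPM in Q140 x Msh3+/-. The groups did not overlap, and the log2 difference was 0.35 (SE 0.064, adjusted p = 0.00154). Penk, the enkephalin precursor (chromosome 4, 4133531 to 4138819, minus strand), was at 582, 676 and 801 CPM in Q140 and at 744, 813 and 905 CPM in Q140 x Msh3+/-, with 5 of 8 libraries above the highest Q140 library. Its log2 difference was 0.27 (SE 0.053, adjusted p = 0.00255). Drd2, the dopamine receptor that defines this type, had a log2 difference of 0.15 (SE 0.043, adjusted p = 0.0684) and did not pass. The call of Gpr6, an orphan receptor, was lost without Q140 F2, F3 or F4 or Q140 x Msh3+/- F3, F4 or M2 (adjusted p up to 0.106 over the alternatives with both sexes). It was also lost without the 2 Msh3Q libraries, and with the name prefix as a term.

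Of the 9 direct pathway genes, Drd1 and Chrm4 rose (22.2%, beside 0.842% of all genes tested) and none fell, and the list median was 0.05. Drd1 was at 189 to 218 CPM (median 204) in Q140 and 198 to 258 CPM (median 233) in Q140 x Msh3+/- (log2 difference 0.19, SE 0.042, adjusted p = 0.00898). Chrm4, a muscarinic receptor that opposes Drd1 signalling, rose by 0.24 (SE 0.044, adjusted p = 0.00161). The neuropeptide precursors of this type did not pass: Pdyn had a log2 difference of 0.17 (adjusted p = 0.277) and Tac1 of -0.02 (adjusted p = 0.894). Over the 27 neuropeptide and secretory granule genes tested, Penk was the only member called (3.70%, beside 1.32% of all genes tested).

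**Figure D2:**
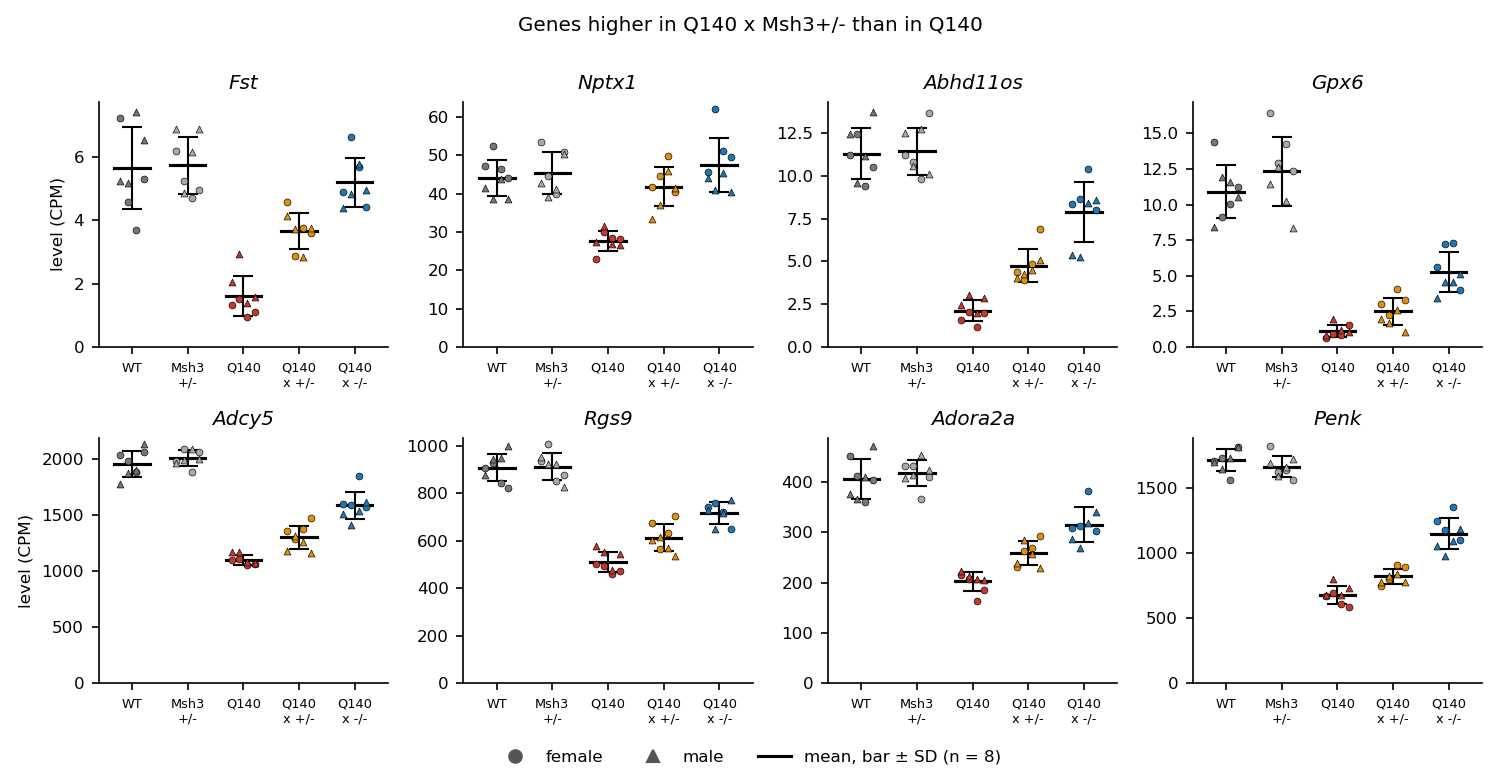
Level in CPM (y axis, from 0) of 8 genes that rose, by labelled genotype (x axis, all but Msh3-/-); circles are females, triangles are males, lines are means and bars ± SD over 8 libraries. For Abhd11os, Nptx1 and Adora2a the Q140 x Msh3+/- libraries all lie above the Q140 libraries, while for Gpx6 the lowest (1.07 CPM) lies inside the Q140 range of 0.607 to 1.96 CPM.

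In cyclic AMP and G protein signalling, the second messenger system through which dopamine and adenosine act on these neurons, 7 of 53 genes rose and 2 fell, with a list median of 0.02. That is 17.0% of the list called, beside 1.32% of all genes tested. Of the 7, Adcy5, Rgs9, Pde10a, Pde2a and Ppp1r1b are also on the identity list, and the others were the phosphatase inhibitors Ppp1r1a (log2 difference 0.23, SE 0.048, adjusted p = 0.00431) and Arpp19 (0.21, SE 0.049, adjusted p = 0.0184). Those that fell were Gng4, a G protein gamma subunit, by 0.41 (SE 0.099, adjusted p = 0.0223), and Prkar2a, a regulatory subunit of protein kinase A, by 0.20 (SE 0.051, adjusted p = 0.0305). The Arpp19 call was lost without Q140 F2 or Q140 x Msh3+/- F1 or F3, with an adjusted p of up to 0.0574. Over the alternatives with both sexes the adjusted p reached 0.0837 for Gng4 and 0.136 for Prkar2a. Both calls were lost without the 2 Msh3Q libraries, and that of Prkar2a also with the name prefix as a term. The count of 2 genes that fell became 0 without any of Q140 F2, Q140 F3, Q140 F4, Q140 x Msh3+/- F1 or Q140 x Msh3+/- F4, and also without the 4 libraries that lay apart, where 6 rose. It was 1 without any of Q140 F1, Q140 M3 or Q140 M4 and 4 without Q140 M2.

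Among 37 glutamate and GABA receptor genes tested, 3 rose (8.11%, beside 0.842% of all genes tested) and none fell, with a list median of 0.02. Without the 4 libraries that lay apart the count was 2. The 3 were Gabrd, the delta subunit of extrasynaptic GABA-A receptors (log2 difference 0.22, SE 0.041, adjusted p = 0.00165), the metabotropic receptor Grm4 (0.18, SE 0.039, adjusted p = 0.0063) and the kainate receptor subunit Grik2 (0.18, SE 0.045, adjusted p = 0.0194). The call of Grik2 was lost without Q140 F1 or F3 or Q140 x Msh3+/- F1 or F4, with an adjusted p of up to 0.091 over the alternatives with both sexes. Of 57 potassium and sodium channel genes tested only Kcnip2 and Scn4b rose (3.51%), and of 46 calcium store, channel and kinase genes only Ryr1 (2.17%). The share of all genes tested was 0.842%, and a single call is not read as a result about the calcium list. The calcium count was 2 without Q140 M1 and 3 without Q140 M2.

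Fst (ENSMUSG00000021765; chromosome 13, 114452290 to 114458951, minus strand), which encodes follistatin, a secreted protein that binds activin, had the smallest adjusted p after Msh3 among the genes that rose. Its lowest, median and highest levels were 0.936, 1.45 and 2.93 CPM in Q140 and 2.85, 3.72 and 4.57 CPM in Q140 x Msh3+/-. The ranges touched only through the highest Q140 library, M2, and the lowest Q140 x Msh3+/- libraries, and 6 of 8 lay above it. The log2 difference was 1.20 (SE 0.150, adjusted p = 1.13e-06), or 2.3-fold. Inhba, the activin beta A subunit that follistatin binds, rose by 0.44 (SE 0.086, adjusted p = 0.00255), from 3.86 to 5.96 CPM (median 4.79) to 5.45 to 8.12 CPM (median 6.36). Bmp2, a ligand of the same superfamily, rose by 0.52 (SE 0.094, adjusted p = 0.000897). These 3 were the members called among 42 activin and TGF-beta signalling genes (7.14%, beside 0.842% of all genes tested). None fell, and the list median was 0.03. Pmepa1, a gene induced by TGF-beta that dampens its signalling and is not on that list, rose by 0.21 (SE 0.037, adjusted p = 0.000551).

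Nptx1 (ENSMUSG00000025582; chromosome 11, 119538719 to 119547753, minus strand), a neuronal pentraxin that gathers glutamate receptors at synapses, was at 22.9, 27.9 and 31.7 CPM in Q140 and at 33.5, 41.6 and 49.8 CPM in Q140 x Msh3+/-. No library overlapped, and the log2 difference was 0.58 (SE 0.072, adjusted p = 1.29e-06). Abhd11os (ENSMUSG00000085042; chromosome 5, 135012114 to 135013253, minus strand), a non-coding RNA antisense to Abhd11, was at 1.17, 2.02 and 3.02 CPM and at 3.91, 4.45 and 6.92 CPM. It also had no overlap (log2 difference 1.15, SE 0.151, adjusted p = 5.63e-06), but the strand setting of the counting is not given, so reads of the antisense pair may not be separated. Gpx6 (chromosome 13, 21312125 to 21319624, plus strand), a glutathione peroxidase, was at 0.607, 0.978 and 1.96 CPM in Q140 and at 1.07, 2.44 and 4.08 CPM in Q140 x Msh3+/-. Its log2 difference of 1.12 (SE 0.221, adjusted p = 0.0035) came with overlapping ranges, 5 of 8 libraries being above the highest Q140 library. It was the only riser among 36 glutathione and redox genes tested, where 0.842% of all genes tested rose.

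Further genes that rose were Hrk, a pro-apoptotic BH3-only protein (log2 difference 0.58, SE 0.090, adjusted p = 0.000169), Rspo1, an enhancer of Wnt signalling (0.64, SE 0.110, adjusted p = 0.000567), Ddit4l, an inhibitor of mTOR signalling (0.62, SE 0.116, adjusted p = 0.00168), and Synpr, a synaptic vesicle protein (0.30, SE 0.048, adjusted p = 0.000192). Rspo1 had no overlap, at 3.19 to 4.50 CPM in Q140 and 5.07 to 8.36 CPM in Q140 x Msh3+/-. Vwa7 (log2 difference 0.93, SE 0.172, adjusted p = 0.00165), Gm19410 (0.67, SE 0.10, adjusted p = 9.77e-05) and 9030617O03Rik (0.43, SE 0.062, adjusted p = 2.41e-05) had none either. For Vwa7 the ranges were 1.04 to 3.07 CPM and 3.32 to 6.18 CPM. The matrix genes Abi3bp and Papln each rose by 0.64, with SE 0.118 and 0.128 and adjusted p = 0.00168 and 0.004. Papln missed the threshold when only the 16 libraries of the comparison were fitted (adjusted p = 0.0632).

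In all, 4 called genes fell at least 2-fold. Among the named genes that fell, the homeobox transcription factors Shox2 and Onecut1 changed most. Both are known from embryonic patterning, and genes of this kind are usually silent in adult striatal neurons, where Polycomb complexes hold many of them off, often at promoters rich in CG dinucleotides. The 250 bases before the RefSeq start of each (GRCm38.p6) are shown because these promoters belong to the largest falls among the named genes. CG dinucleotides are in capitals, and the sequences run 5′ to 3′ on the gene's strand. The Shox2 window is chr3:66981772-66982021 on the minus strand, and the Onecut1 window is chr9:74861671-74861920 on the plus strand.
Shox2: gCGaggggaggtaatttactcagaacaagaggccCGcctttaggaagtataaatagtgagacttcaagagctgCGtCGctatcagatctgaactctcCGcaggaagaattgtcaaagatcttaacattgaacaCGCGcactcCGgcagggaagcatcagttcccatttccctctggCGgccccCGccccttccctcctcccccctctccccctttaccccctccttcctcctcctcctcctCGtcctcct
Onecut1: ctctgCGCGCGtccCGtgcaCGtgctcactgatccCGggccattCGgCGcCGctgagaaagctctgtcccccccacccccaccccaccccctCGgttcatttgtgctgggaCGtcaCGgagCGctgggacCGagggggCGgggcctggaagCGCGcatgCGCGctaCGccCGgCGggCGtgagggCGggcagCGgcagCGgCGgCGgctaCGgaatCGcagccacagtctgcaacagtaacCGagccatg
The Shox2 window held 11 CG and the Onecut1 window 31, where the median of the 12472 tested genes with such a window was 15 (quartiles 8 and 22), and 98.6% of those windows held at least 1. CG reads the same on both strands and does not overlap itself. A window was found for 63.3% of the genes tested, too few for a comparison of gene sets.

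Shox2 (ENSMUSG00000027833; chromosome 3, 66971727 to 66981771, minus strand) was at 0.635, 2.37 and 6.04 CPM (lowest, median and highest) in Q140 and at 0.136, 0.236 and 0.441 CPM in Q140 x Msh3+/-. The groups did not overlap. The log2 difference was -3.23 (SE 0.378, adjusted p = 2.76e-07), a 9.36-fold fall, and it rests on 1066 counts over the 8 Q140 libraries and 104 over the 8 Q140 x Msh3+/- libraries. Shox2 was nearly absent in WT, at 0 to 0.0956 CPM. Onecut1 (ENSMUSG00000043013; chromosome 9, 74861921 to 74891781, plus strand) was at 1.12, 2.75 and 5.17 CPM in Q140 and at 0.245, 0.852 and 1.40 CPM in Q140 x Msh3+/-, with 6 of 8 libraries below the lowest Q140 library. It fell by 1.70 on the log2 scale (SE 0.318, adjusted p = 0.00165), over 1180 and 361 counts. Its WT range was 0 to 0.0612 CPM.

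Emx2 (chromosome 19, 59458372 to 59465357, plus strand), a homeobox factor of cortical development, fell by 0.51 (SE 0.080, adjusted p = 9.77e-05), from 7.71 to 12.7 CPM (median 11.1) to 6.74 to 8.48 CPM (median 7.39). The low end of the Q140 range was a single library, M2. Emx2os, transcribed from the opposite strand across the Emx2 start, fell by the same amount (SE 0.119, adjusted p = 0.0149); its call was lost without Q140 F3 (adjusted p = 0.0649), and without a stated strand setting reads of the pair may not be separated. Onecut1 and Emx2 were the members that fell among 46 developmental transcription factors tested of 68 listed (4.35%, beside 0.477% of all genes tested). None rose, and the list median was -0.01. The other 22 had too few counts to be tested, and Shox2 was not on the list.

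Sfmbt2 (chromosome 2, 10370510 to 10595253, plus strand), a Polycomb-associated protein, fell with no overlap, from 10.6, 13.9 and 19.3 CPM in Q140 to 5.69, 8.99 and 10.4 CPM in Q140 x Msh3+/-. Its log2 difference was -0.74 (SE 0.129, adjusted p = 0.000792). It was the only member called among 35 Polycomb genes tested (2.86%, beside 1.32% of all genes tested), whose list median was -0.03. A single call is not read as a result about that list. Kazald1, a secreted protein, fell by 0.71 (SE 0.128, adjusted p = 0.000916), from 2.84 to 5.16 CPM (median 4.19) to 1.99 to 3.15 CPM (median 2.36).

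**Figure D3:**
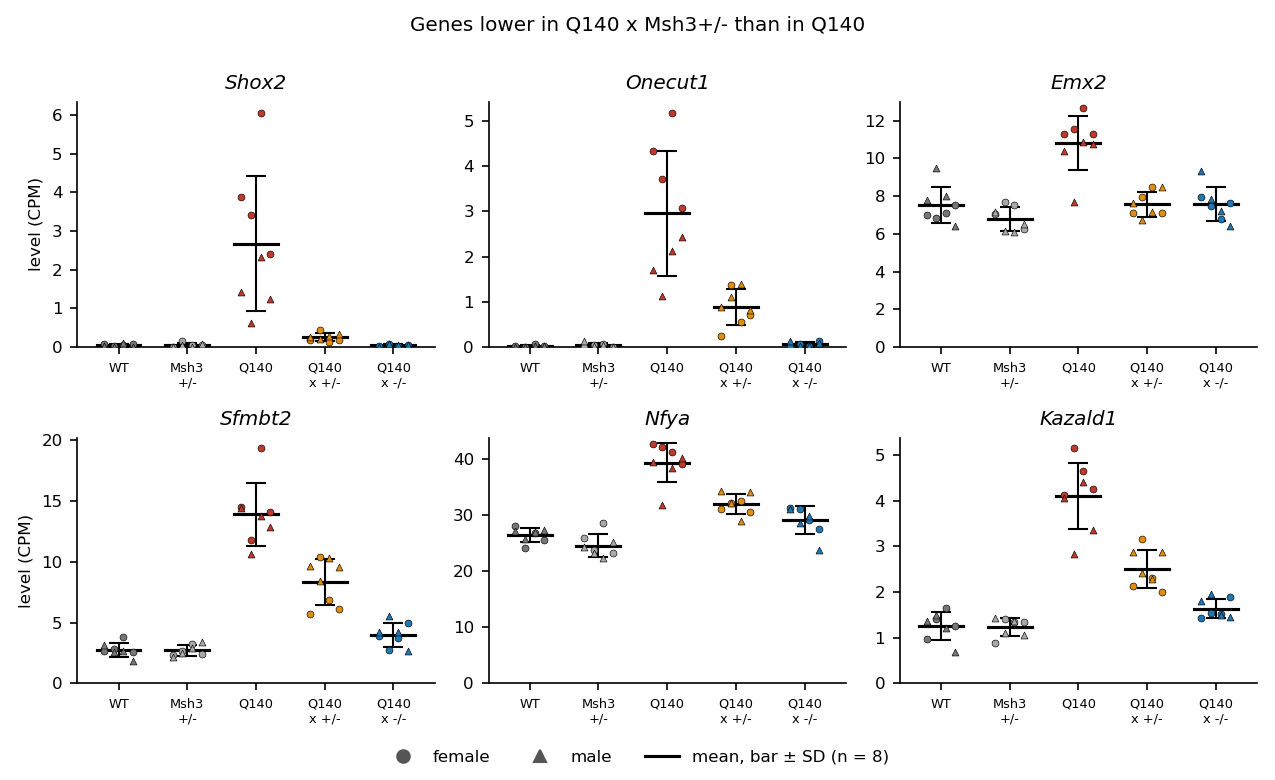
Level in CPM (y axis, from 0) of 6 genes that fell, by labelled genotype (x axis, all but Msh3-/-); circles are females, triangles are males, lines are means and bars ± SD over 8 libraries. The Shox2 level is 0.635 to 6.04 CPM in Q140 and 0.136 to 0.441 CPM in Q140 x Msh3+/-, and for Emx2 and Nfya the lowest Q140 point is the male library M2.

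Nfya and Nfyc encode subunits of NF-Y, a transcription factor that binds CCAAT boxes. Nfya was at 31.7, 39.8 and 42.7 CPM in Q140 and at 28.9, 32.1 and 34.2 CPM in Q140 x Msh3+/-. It fell by 0.30 (SE 0.048, adjusted p = 0.000198), and Nfyc by 0.24 (SE 0.039, adjusted p = 0.000205). The third subunit, Nfyb, named here after its value was seen, had a log2 difference of -0.05 (SE 0.041, adjusted p = 0.619) and did not pass. Also lower were Abca7, a lipid transporter (by 0.29, SE 0.062, adjusted p = 0.00604), and Dgkg, a diacylglycerol kinase (by 0.24, SE 0.054, adjusted p = 0.00988).

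A single gene fell in each of the DNA repair, chaperone and redox lists, beside 0.477% of all genes tested, and each of these calls depended on the fit. Of 23 mismatch repair genes and partners tested, Msh3 itself left out, none rose and Mlh3, a MutL-type mismatch repair protein, fell by 0.13 (SE 0.032, adjusted p = 0.0207); the list median was -0.04. The Mlh3 call was lost without any of Q140 F1, Q140 F2, Q140 F3, Q140 F4 or Q140 x Msh3+/- M2, with an adjusted p of up to 0.171 over the alternatives with both sexes. Dnaja1, a co-chaperone of Hsp70, fell by 0.16 (SE 0.043, adjusted p = 0.0416), the only call among 35 heat shock genes, of which 31 were below 0 (list median -0.07). The list's count was 0 without the 4 libraries that lay apart, and likewise without any of Q140 F1, F2, F3, F4, M3 or M4 or Q140 x Msh3+/- F1, F4 or M2. It was 2 without Q140 M1 or Q140 x Msh3+/- M4 and 3 without Q140 M2 or Q140 x Msh3+/- F3. The adjusted p of Dnaja1 reached 0.153, its call being lost also without Q140 x Msh3+/- F2 or M3. Sod2, the mitochondrial superoxide dismutase, fell by 0.10 (SE 0.028, adjusted p = 0.0422), and it was the only call downwards among the 36 redox genes, of which Gpx6 rose. That call was lost without the 4 libraries that lay apart and without any single library of the 16 other than Q140 M1, M2 or M4 or Q140 x Msh3+/- M3 or M4, with an adjusted p of up to 0.137. The Mlh3, Dnaja1 and Sod2 calls were each lost too without the 2 Msh3Q libraries, and with the name prefix as a term.

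Other gene groups gave no call, where 1.32% of all genes tested passed and 14.0% had an unadjusted p under 0.05. At 1.32% a list of 20 or 28 genes would often hold no call, so a 0 there says little. None of 55 clustered protocadherin genes tested passed in edgeR, although 43 were below 0 with a list median of -0.10; 13 had an unadjusted p under 0.05, and DESeq2 called 3. Their reads can be shared between near-identical genes, so single members are uncertain. None of 90 oxidative phosphorylation genes, 28 cholesterol genes or 20 immediate early genes passed in edgeR or DESeq2, with 7, 3 and 0 at an unadjusted p under 0.05. The median of the immediate early genes, which neuronal activity and handling induce, was 0.33 in females and -0.31 in males. Over the 10 marker lists together, 5 of 104 genes had an unadjusted p under 0.05, and neither tool called any.

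**Figure D4:**
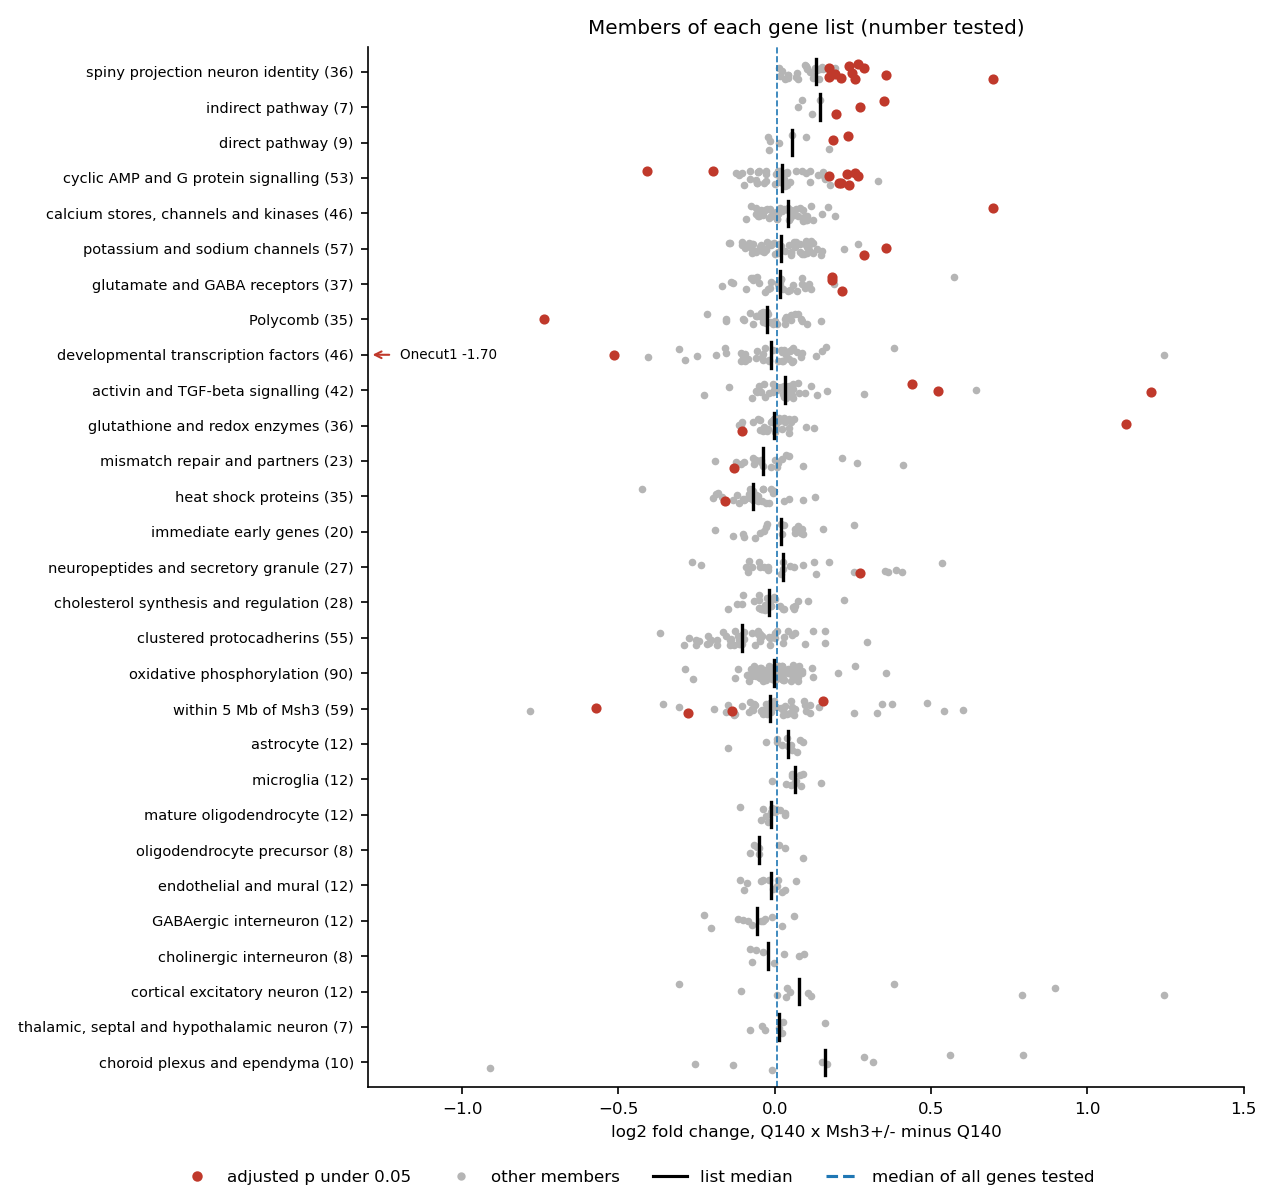
Log2 fold change of Q140 x Msh3+/- minus Q140 (x axis) for every tested member of each gene list (y axis, number tested in brackets); red points passed an adjusted p of 0.05, grey points did not, black bars are list medians and the dashed line is the median of all genes tested. All 36 spiny projection neuron identity genes lie right of 0, with Ryr1 at 0.70, and Onecut1 at -1.70 is drawn as an arrow.

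Loss of the first and of the second Msh3 allele can be set side by side for the genes above, with the caution that both steps use the Q140 x Msh3+/- libraries. Q140 x Msh3-/- minus Q140 x Msh3+/- had 637 genes past the threshold (3.23%), against 260 for the first step. For Nptx1 the first step was 0.58 and the second 0.18 (adjusted p = 0.178), and for Synpr they were 0.30 and 0.14 (adjusted p = 0.117). For Emx2 they were -0.51 and 0.01 (adjusted p = 0.987), and its mean level was 7.53 CPM in WT, 7.57 CPM with 1 allele lost in Q140 and 7.59 CPM with both lost. For Fst the steps were 1.20 and 0.51 (adjusted p = 0.026) and for Gpx6 1.12 and 1.08 (adjusted p = 0.000383). Penk, at 0.27 and 0.48 (adjusted p = 4.17e-08), and Sfmbt2, at -0.74 and -1.07 (adjusted p = 1e-06), had the larger value in the second. Onecut1 fell by 1.70 and then by 3.80 (adjusted p = 2.1e-07), and Shox2 by 3.23 and then by 2.45 (adjusted p = 0.00366). Both were near 0 in Q140 x Msh3-/-, Onecut1 at 0 to 0.141 CPM and Shox2 at 0 to 0.0905 CPM. Their second log2 values are therefore uncertain in size. In CPM the larger part of each fall came with the first allele. Onecut1, for example, was at 1.12 to 5.17 CPM in Q140 and 0.245 to 1.40 CPM in Q140 x Msh3+/-.

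Whether a gene lay off the midpoint between Q140 and Q140 x Msh3-/- was tested directly on the log2 scale. Only Msh3 itself passed (1 of 19714, 0.00507%), at 0.34 above the midpoint (SE 0.029, adjusted p = 8.92e-12); 1219 genes had an unadjusted p under 0.05, and DESeq2 also called 1. On the linear scale the mean Msh3 level of 74.9 CPM lay near 73.0 CPM, the mean of the 2 other group means. On the log2 scale no other gene was thus shown to respond mainly to the first or mainly to the second allele. Nptx1 lay 0.20 above the midpoint (SE 0.061, adjusted p = 0.80) and Fst 0.35 above it (SE 0.123, adjusted p = 0.80).

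The 8 Msh3+/- and 8 WT libraries are in neither group of the main comparison, but they share its fit and its estimate of spread. They give the loss of the same allele without Q140. There 2 genes passed (0.0101%), Msh3 with a log2 difference of 1.35 (SE 0.035, adjusted p = 9.99e-36) and F2r, a thrombin receptor on chromosome 13, with 0.52 (SE 0.098, adjusted p = 0.0219); 937 genes had an unadjusted p under 0.05, and DESeq2 called 5. F2r lies 3.25 Mb from Msh3, and in the Q140 comparison it had a log2 difference of 0.33 (SE 0.097, adjusted p = 0.0756). The difference between the allele's effect with and without Q140 passed for 3 genes, all higher (0.0152%); 1791 had an unadjusted p under 0.05, and DESeq2 called 51. These were Fst (1.18, SE 0.202, adjusted p = 0.00817), Abhd11os (1.13, SE 0.200, adjusted p = 0.0105) and Nptx1 (0.54, SE 0.101, adjusted p = 0.0191). Without Q140 their log2 differences were 0.02, 0.01 and 0.04. Fst, for example, was at 3.69 to 7.41 CPM in WT and 4.70 to 6.87 CPM in Msh3+/-. The WT libraries F3 and F4 have name prefixes found in no other group. Name prefix was not used as a term for either of these comparisons, so its part in them was not tested.

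Genes beside Msh3 were counted separately, since they travel with the targeted allele in a cross. On chromosome 13, where Msh3, Fst, Gpx6 and Inhba lie, 9 of 678 genes tested rose (1.33%) and 8 fell (1.18%), beside 0.842% and 0.477% of all genes tested. Of 59 tested within 5 Mb of Msh3, 1 rose and 3 fell; without the 4 libraries that lay apart 0 rose and 3 fell. Without Q140 M4 2 rose. AW495222 fell with no overlap, from 2.62 to 3.18 CPM to 1.47 to 2.26 CPM (by 0.57, SE 0.134, adjusted p = 0.0156), and without Q140 its log2 difference was -0.47 (SE 0.140, adjusted p = 0.981). Cmya5, a muscle anchoring protein gene, fell by 0.28 (SE 0.068, adjusted p = 0.0195) with -0.32 (SE 0.067, adjusted p = 0.107) without Q140; its call was lost without Q140 x Msh3+/- F2, M2 or M3 (adjusted p up to 0.0725 over the alternatives with both sexes). Col4a3bp, a ceramide transporter gene, fell by 0.14 (SE 0.030, adjusted p = 0.00988), and its call was lost without Q140 F2 (adjusted p up to 0.0659 over the alternatives with both sexes). Gfm2, a mitochondrial translation factor gene, rose by 0.15 (SE 0.041, adjusted p = 0.0438). That call was lost without any of Q140 F1, F2, F3, F4 or M3 or Q140 x Msh3+/- F1, F2, F4, M1 or M4, with an adjusted p of up to 0.137. Without the 2 Msh3Q libraries the calls of Cmya5, Col4a3bp and Gfm2 were lost. With the name prefix as a term those of Cmya5 and Gfm2 were.

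**Figure D5:**
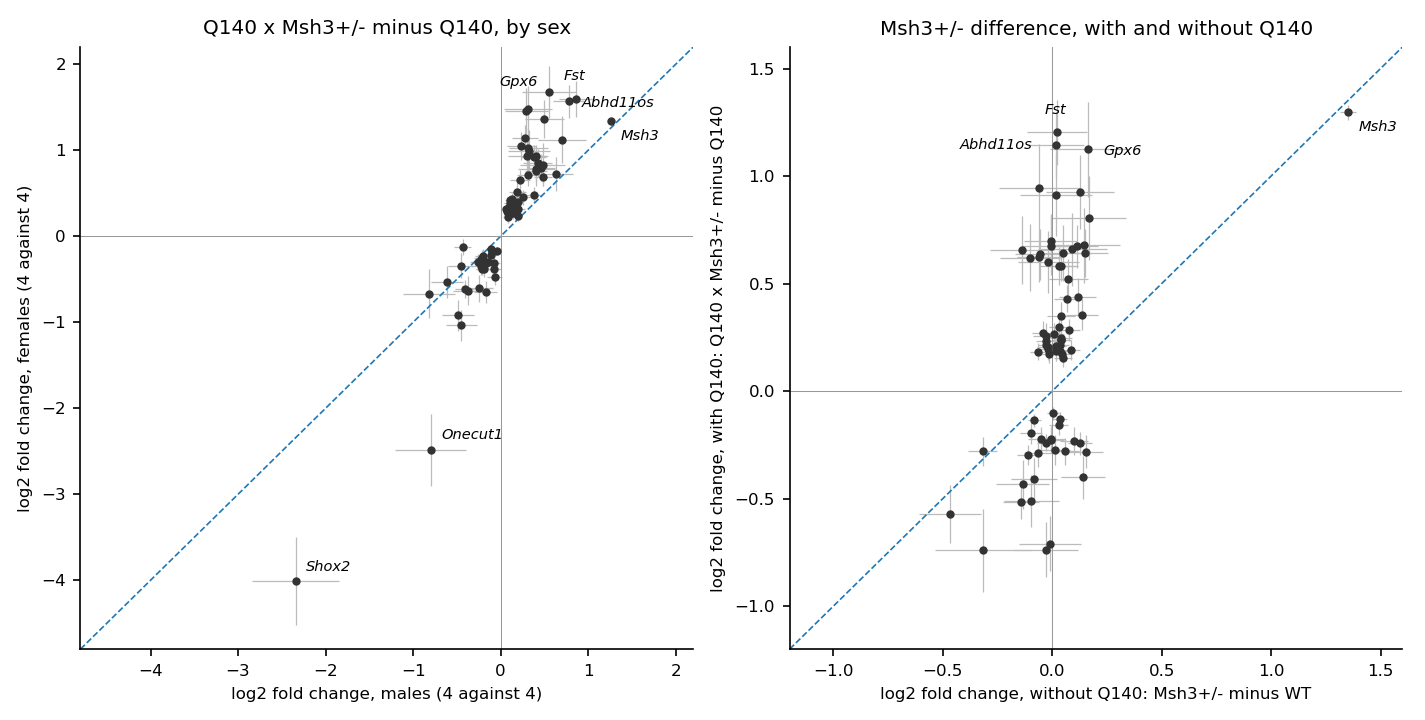
Log2 fold changes with SE bars for the named genes that passed the test: left, Q140 x Msh3+/- minus Q140 in females (y axis) against males (x axis), 4 against 4 libraries each; right, the Msh3+/- difference with Q140 (y axis) against without Q140 (x axis), without Shox2 and Onecut1, which were near 0 CPM in WT and Msh3+/-. The dashed line marks equal values; Fst lies at 1.20 with Q140 and 0.02 without, Msh3 near the line in both panels.

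Most genes that passed had the larger difference in females, but no gene passed the test of a difference between the sexes. Females alone gave 404 genes (2.05%; 267 higher and 137 lower) and males alone 1, Msh3 (0.00507%), with 595 at an unadjusted p under 0.05 in males and 3148 in females. For the difference between the sexes edgeR and DESeq2 each called 0 genes, and 955 had an unadjusted p under 0.05 in edgeR. Of the 166 genes that rose, 157 had the larger value in females, with medians of 0.40 in females and 0.19 in males, beside 65.6% of all tested genes with a value above 0. Of the 94 that fell, 87 did, with medians of -0.22 and -0.10, beside 63.9% of those below 0. Spiny projection neuron identity genes had a median of 0.19 in females, with 15 of 36 higher, and of 0.06 in males, with 0. The Q140 x Msh3+/- females include F1, which lay apart on the first residual component, and values by sex were not computed without it.

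Onecut1 and Shox2 had separate ranges in the Q140 females and males. Onecut1 was at 3.07 to 5.17 CPM in Q140 females and 1.12 to 2.42 CPM in Q140 males, and at 0.245 to 1.37 CPM and 0.824 to 1.40 CPM in Q140 x Msh3+/- females and males. Shox2 was at 2.42 to 6.04 CPM and 0.635 to 2.33 CPM in Q140, and at 0.136 to 0.441 CPM and 0.203 to 0.350 CPM with 1 allele lost. Females were the higher in Q140 for both genes, while the Q140 x Msh3+/- libraries of the sexes overlapped. Ryr1 was at 24.6 to 35.7 CPM in Q140 females and 29.8 to 49.4 CPM in Q140 males, and at 48.6 to 74.4 CPM and 42.5 to 53.1 CPM in Q140 x Msh3+/-. The genotypes did not overlap for Ryr1 in females and did in males.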

How the data were processed

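Striatal RNA of 48 mice was sequenced (TruSeq stranded libraries, per the labels' protocols), 8 mice in each of 6 genotypes. The authors deposited raw counts per gene for 48795 genes. STAR 2.7.5c, SAMtools 1.10, HTSeq 0.12.3 and GRCm38 are named in the submitters' processing notes; which annotation release and strand setting were used is not stated there or in the labels. Of the identifiers, 48349 matched GENCODE M21, whose coordinates are used, and 27 symbols that a spreadsheet had turned into dates were restored.

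Genotype and sex came from the labels. Each library is a separate mouse by label. Counts of all 48 libraries were fitted with edgeR 4.0.16 (R 4.3.3; TMM scaling, robust quasi-likelihood F-test, genotype and sex as terms, 41 residual degrees of freedom). Genes passing filterByExpr (minimum count 10) numbered 19714, and Benjamini-Hochberg adjustment covered them all at a threshold of 0.05. SE is the log2 fold change over the root of F. Values by sex, including those given as females alone and males alone, came from a fit of genotype by sex to all 48 libraries. The fit was tested on simulated counts. Named genes are the 20 with the largest change in each direction and the 15 with the smallest adjusted p (changes ranked only above a mean log2 CPM of 1), then the called members of the lists, fixed reference genes and those called in the other contrasts. The comparison, lists and rules were chosen with earlier results of these data known. Promoter windows are from RefSeq (GRCm38.p6). Alternatives were other scaling, DESeq2 1.42.0, filters, plate position and name prefix as terms, a replicate block, each sex alone and each library left out.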

Additional observations from a re-analysis of the deposited data

Results flagged for a closer look

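Among 162 groups of 8 libraries, from 81 genes, 8 held a library set far from its nearest neighbour (a gap above Dixon's critical value); chance gives about 1 in 20. In Q140 M2, Nfya was at 31.7 CPM (group median 39.8), Emx2 at 7.71 CPM (median 11.1) and Suv39h2, a histone methyltransferase gene that fell, at 4.59 CPM (median 6.14), each on the side of the Q140 x Msh3+/- libraries. In Q140 x Msh3+/- F1, which also lay apart on the first residual component, Atp6v1c2, a proton pump subunit gene that rose, was at 3.77 CPM (median 1.79) and Abca7 at 17.9 CPM (median 23.2). Over the 30 alternatives with both sexes, the Atp6v1c2 call was lost in 7, including that without this F1 library (adjusted p up to 0.118). The Suv39h2 call was lost in 20 of them (adjusted p up to 0.234). Abhd11os was at 6.92 CPM in Q140 x Msh3+/- F4 (median 4.45). Chrm4 was at 49.7 CPM in Q140 x Msh3+/- M4 (median 60.9), and Col4a3bp at 102 CPM in Q140 F2 (median 90.1).

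The effect of the allele differed with and without Q140 for Fst (by 1.18 log2 units), Abhd11os (1.13) and Nptx1 (0.54) in the test of that difference. Each kept its call under all 7 alternatives run for that contrast. The adjusted p values were 2.71e-05 to 0.0163 for Fst, 0.000191 to 0.0173 for Abhd11os and 0.000234 to 0.0409 for Nptx1. Omission of a single library or of the Msh3Q libraries was not run for that contrast. Neither was a term for name prefix or plate position.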

How the results depend on the processing

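All 260 genes kept their direction in every alternative that tested them, each of which shares libraries with the fit that chose them. The count of 260 was 444 with DESeq2, 422 with plate column as a term, 173 without the 2 Q140 libraries whose names begin with Msh3Q (F4 and M4), 404 in females alone, 1 in males alone and 44 at a change of at least 1.5-fold. It was 154 without the 4 libraries that lay apart, an alternative chosen after seeing the data, and 122 to 481 when each of the 16 libraries was left out. Fitting only the 16 libraries of the comparison gave 181 genes, 147 of them among the 260. Among the genes named above, that fit ended the calls of Ryr1, Papln, Pde2a, Actn2, Grik2, Gng4 and Prkar2a. It also ended those of Mlh3, Sod2, Cmya5, Col4a3bp, Gfm2, Suv39h2 and Atp6v1c2. Other alternatives gave 179 to 305. The share of higher genes, 63.8%, was 65.5% to 67.7% under other scalings, 78.0% without the Msh3Q libraries and 52.4% without Q140 M2. Of the named genes that passed, 42 of 76 kept the call in all 30 settings other than the sexes alone. For the difference in the allele's effect with and without Q140, the 3 genes became 5 with total counts in place of TMM, 51 with DESeq2 and 6 at a mean CPM of at least 1. Msh3+/- minus WT had 5 genes with DESeq2 in place of 2. Leaving out genes up to 5 Mb from either Msh3 or Htt, the count for Msh3+/- minus WT and the count off the midpoint were 0. That filter takes out Msh3 and F2r, the only genes in those counts, so the 0 values are no separate result.

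Equal replicate numbers did not pair the mice: correlations of same-numbered libraries ran from -0.098 to 0.246 and 2 of 8 were above 0.1. With a replicate block 269 genes passed, 245 of them among the 260. Where these settings moved a count, the cause was not tested.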
